A study of Mus musculus with 11 samples.

Results

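The genes described here are 45 mouse genes of mitosis and cytokinesis, taken by their symbols from the 15113 genes with a row of counts, through the Ensembl identifiers of the rows. All 45 were found, and all 45 passed the filter on low counts that left 13025 genes. The libraries come from C2C12, an established line of mouse skeletal myoblasts that forms myotubes in culture, and all were labelled as myotubes of an early stage at passages 2 to 5. The shDRP1 libraries (n = 5) carried a short hairpin RNA against Drp1, the mitochondrial fission GTPase encoded by Dnm1l, and the shRandom libraries (n = 6) carried a random hairpin. The series asks how Drp1 acts on substrate oxidation and calcium in muscle, and no label names the cell cycle as its subject. The labels do not say how the hairpins were delivered, nor whether a group came from 1 clone or from separate cultures. A p-value here is therefore set against the spread of libraries that may be technical replicates.

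Mitosis is driven by the kinase CDK1 with its cyclins, which are made late in the cell cycle and destroyed at anaphase by the ubiquitin ligase APC/C. Chromosomes are compacted by condensin, attached to spindle microtubules at kinetochores under the watch of the spindle checkpoint, and separated before a contractile ring divides the cell. Myoblasts leave the cell cycle for good as they become myotubes, and the genes of this programme are normally silenced there. The DREAM complex represses them through the CHR element of promoters, which its MuvB core binds. CCAAT elements near it bind the activator NF-Y.

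Promoter stretches of 8 of the genes are printed to show these elements: 6 of the 8 genes in which both lie in such a stretch, and Smc2 and Ncaph, the 2 genes whose groups did not overlap. They are from RefSeq (GRCm38.p6), which gave a window of 250 bases before to 50 bases after the start for 37 of the 45 genes. Each stretch lies before the start, outside annotated exons, and reads 5′ to 3′ on the strand of the gene. Capitals mark the CHR letters TTTGAA or TTTAAA and the CCAAT letters, or the same read on the other strand (TTCAAA and ATTGG), and no matches overlapped.
Cdk1, chr10:69352939-69353068, minus strand: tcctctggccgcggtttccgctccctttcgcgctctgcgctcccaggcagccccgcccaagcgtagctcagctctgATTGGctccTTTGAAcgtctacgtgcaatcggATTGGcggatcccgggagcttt
Cdc20, chr4:118437353-118437482, minus strand: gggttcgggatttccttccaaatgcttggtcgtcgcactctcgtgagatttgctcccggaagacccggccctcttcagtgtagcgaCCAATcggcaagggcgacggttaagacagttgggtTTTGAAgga
Kif11, chr19:37376252-37376381, plus strand: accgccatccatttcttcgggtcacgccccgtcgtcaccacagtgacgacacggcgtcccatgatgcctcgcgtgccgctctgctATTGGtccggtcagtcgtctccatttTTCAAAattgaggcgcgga
Ect2, chr3:27153879-27154008, minus strand: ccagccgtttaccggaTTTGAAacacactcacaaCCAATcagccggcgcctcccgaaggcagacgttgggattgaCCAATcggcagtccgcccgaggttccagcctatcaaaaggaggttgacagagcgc
Ncapd2, chr6:125191702-125191800, minus strand: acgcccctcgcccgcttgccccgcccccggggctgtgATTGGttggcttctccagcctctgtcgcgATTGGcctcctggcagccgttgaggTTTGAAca
Top2a, chr11:99024190-99024319, minus strand: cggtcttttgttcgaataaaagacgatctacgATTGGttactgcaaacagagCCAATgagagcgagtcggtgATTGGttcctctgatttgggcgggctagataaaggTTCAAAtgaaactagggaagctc
Smc2, chr4:52439091-52439220, plus strand: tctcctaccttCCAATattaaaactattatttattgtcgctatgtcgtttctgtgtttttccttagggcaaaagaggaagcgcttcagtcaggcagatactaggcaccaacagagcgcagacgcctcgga
Ncaph, chr2:127133955-127134084, minus strand: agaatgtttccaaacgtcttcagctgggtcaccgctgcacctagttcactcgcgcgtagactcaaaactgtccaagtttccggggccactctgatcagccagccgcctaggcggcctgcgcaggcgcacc
In the whole windows, 31 of 37 genes (83.8%) held a CHR match and 29 (78.4%) a CCAAT match. Among 9724 tested genes with a window, 19.0% held a CHR match and 39.1% a CCAAT match. Both kinds stood in 27 of 37 windows (73.0%), against 7.64% of the windows of tested genes. Smc2 held 2 CHR matches in its window, both outside the stretch printed, and Ncaph held no match of either kind. CHR matches stood in 10 of 13 windows of genes that were higher in shDRP1 libraries and in 21 of 24 windows of genes that did not pass the test. These are matches of letters, and no factor was measured at them.

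Levels are CPM, 3′ tag counts scaled to a common library size, from totals of 12277622 to 23082617 counts per library. Dnm1l, the target of the hairpin, had 14.5 to 21.0 CPM in shDRP1 libraries and 67.1 to 86.3 CPM in shRandom libraries. The myotube genes, 12 of 12 lower in edgeR, had a summed level of 228 to 294 CPM in shDRP1 and 16241 to 18593 CPM in shRandom libraries, with Acta1, skeletal actin, at 46.2 against 5617 CPM and Mylpf, a fast myosin light chain, at 26.0 against 3082 CPM in shDRP1 and shRandom libraries. Both groups carry the label of myotubes, and the defining markers were abundant in shRandom libraries and far lower in shDRP1 libraries. Fibroblast genes (5 of 6 measured, 4 higher) summed to 8034 to 11393 CPM in shDRP1 and 4937 to 5255 CPM in shRandom libraries. Beside these calls, 33.9% of all genes were higher and 33.3% lower. Leukocyte genes (4 of 6 measured, with Cd14 higher and Csf1r lower) summed to 3.14 to 5.92 CPM in shDRP1 and 3.04 to 4.25 CPM in shRandom libraries, with Itgam at 0 in all shDRP1 libraries. Of endothelial genes 1 of 5 was measured, at up to 0.567 CPM in shDRP1 and up to 0.318 CPM in shRandom libraries. Of adipocyte genes 2 of 5 were measured (Pparg higher), summing to 2.27 to 5.03 CPM in shDRP1 and 0.580 to 1.57 CPM in shRandom libraries. All libraries come from the C2C12 line, so these are levels of marker genes and not a measure of other cells. The part of these levels in the results was not tested. In bulk RNA, fewer cells of a type and less RNA per cell cannot be told apart.

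The mitotic genes held calls in 1 direction. Of the 45 genes, 15 were higher (33.3%) and 30 missed the threshold, an adjusted p of 0.05 in edgeR's quasi-likelihood test, while 33.9% of all 13025 genes were higher. The count was 18 with DESeq2 and 9 with limma-voom. It was 7 without shDRP1 library 2, and 23 without library 3 or without library 4. With 1 library left out, 4150 to 4427 of all genes were called higher. None of the 45 was lower, against 33.3% of all genes. That count of 0 also held at an unadjusted p under 0.05 and with DESeq2 and limma-voom. The median log2 fold change was 0.37 over the 45 genes, with a range of -0.24 to 1.33, and 0.031 over all genes tested. Every shDRP1 library lay above every shRandom library for 2 of the genes, Smc2 and Ncaph, while this held for 23.5% of all genes. No mitotic gene had every shDRP1 library below every shRandom library, while 25.4% of all genes did.

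**Figure D1:**
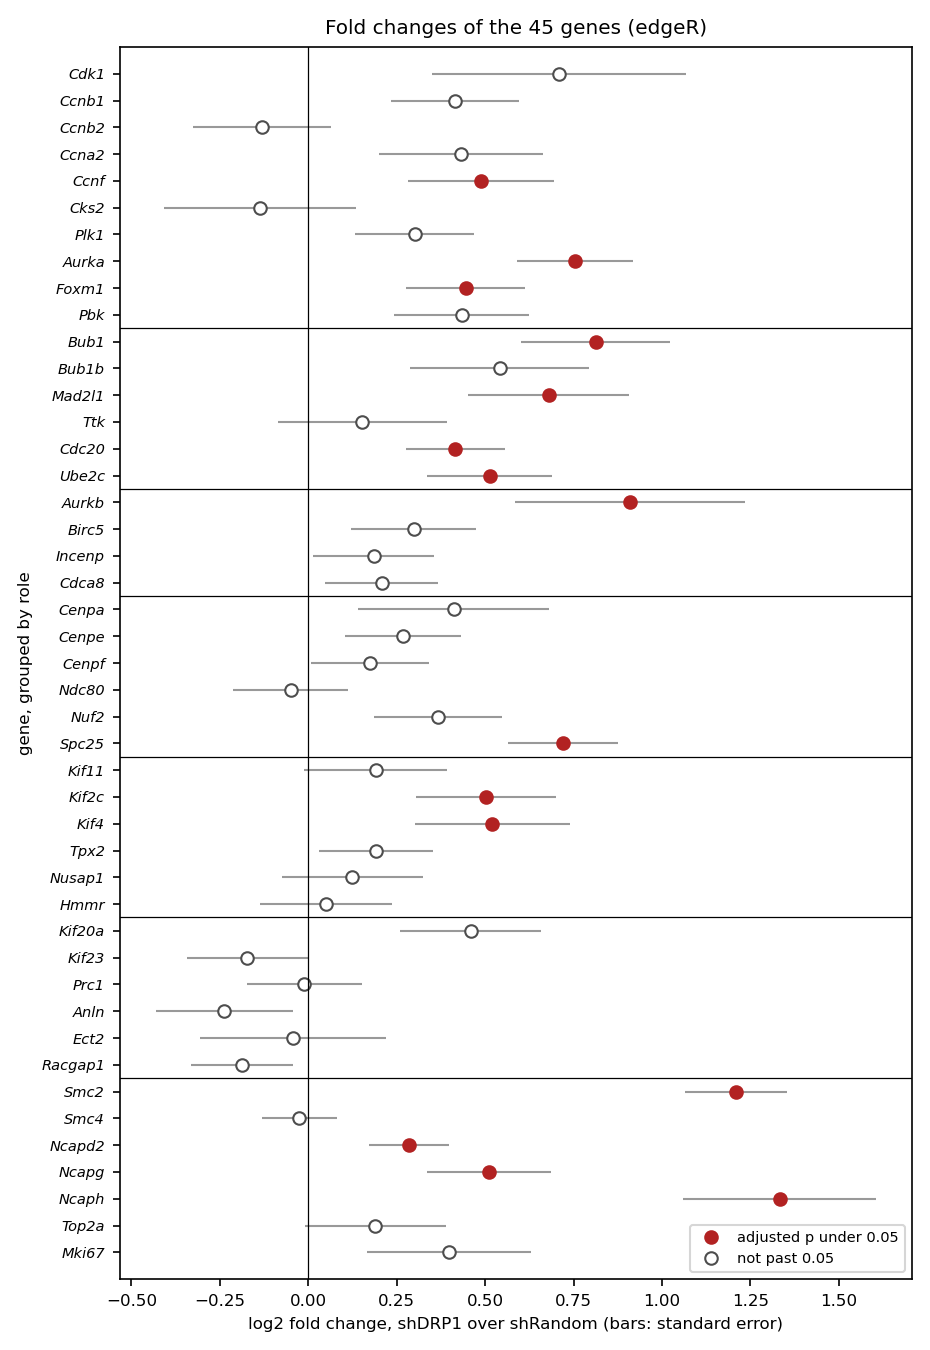
Log2 fold change of each gene, shDRP1 over shRandom, with its standard error; horizontal lines divide the 7 roles, from entry into mitosis at the top to condensin at the bottom, and filled points passed an adjusted p of 0.05. Smc2 and Ncaph lie farthest right, and 5 of the 6 cytokinesis genes lie left of 0.

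Within the shDRP1 group the mitotic genes were high in 3 libraries and low in the other 2. The summed level of the 45 genes was 2609, 2714, 1606, 1654 and 2543 CPM in shDRP1 libraries 1 to 5, against a lowest of 1591, a median of 1725 and a highest of 2154 CPM in shRandom libraries. Libraries 1, 2 and 5 were thus above every shRandom library, and libraries 3 and 4 lay among the lower of them. The group means were 2225 ± 547 CPM in shDRP1 and 1825 ± 227 CPM in shRandom libraries (SD, n = 5 and 6), a difference smaller than the spread between shDRP1 libraries. Abundant genes weigh most in these sums, and they did not move together. In shDRP1 libraries 3 and 4 Smc2 had 145 and 166 CPM, against 72.6 to 109 CPM in shRandom libraries. Smc4 had 283 and 281 CPM there, against 314 to 404 CPM in shRandom libraries. Taken gene by gene, 35, 33 and 32 of the 45 genes were above every shRandom library in shDRP1 libraries 1, 2 and 5. In libraries 3 and 4 this held for 4 and 3 genes. The share of all genes above every shRandom library in a single shDRP1 library is not given, so these counts are not shown to be particular to the 45. That share cannot be below 23.5%, the share of all genes with every shDRP1 library above. No label sets shDRP1 libraries 1, 2 and 5 apart from 3 and 4, so they were kept together in every test.

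**Figure D2:**
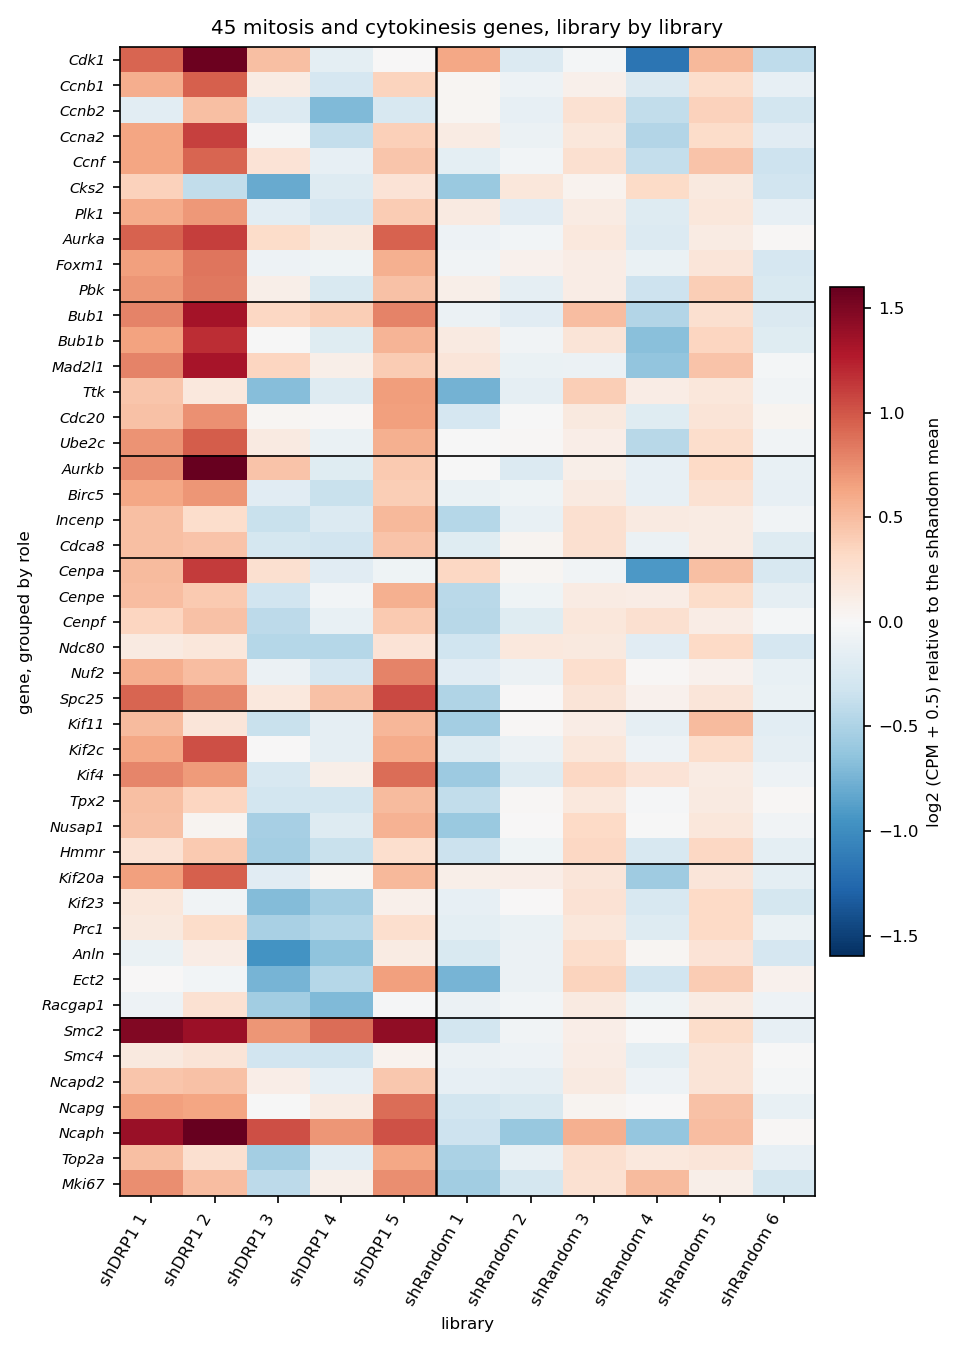
Each row is a gene, grouped by role, and each column a library; colour gives log2 of CPM + 0.5 relative to the mean of the shRandom libraries. Columns shDRP1 1, 2 and 5 are mostly red, while shDRP1 3 and 4 are mostly pale or blue apart from Smc2 and Ncaph.

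The coefficient of variation was larger in shDRP1 than in shRandom libraries for 44 of the 45 genes, with medians of 29.8% and 18.2%, beside 13.7% and 12.2% over all genes tested. Libraries 1, 2 and 5 all lay above 3 and 4 for 39 of the 45 genes, where this split was seen first. The same order held for 9.24% of all genes tested, and the opposite order for 1512 of 13025. Some other measures split the libraries along the same line, and others did not. Total counts were 16591621, 12277622, 18333694, 20706327 and 16977761 in shDRP1 libraries 1 to 5, highest in libraries 3 and 4. With all libraries thinned to the smallest total, 17 of the 45 genes were higher in edgeR. The summed myotube level was 276, 260.3, 235, 228 and 294 CPM and the summed fibroblast level 9749, 11393, 8457, 8034 and 9034 CPM, both lowest in libraries 3 and 4. Their part in the result was not tested. Dnm1l, at 19.1, 14.5, 18.1, 21.0 and 20.6 CPM in shDRP1 libraries 1 to 5, was lowest in library 2 and did not follow that split. The share of counts on mitochondrial genes did not follow it either, at 4.44%, 3.40%, 4.16%, 4.82% and 4.81% in the same order.

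**Figure D3:**
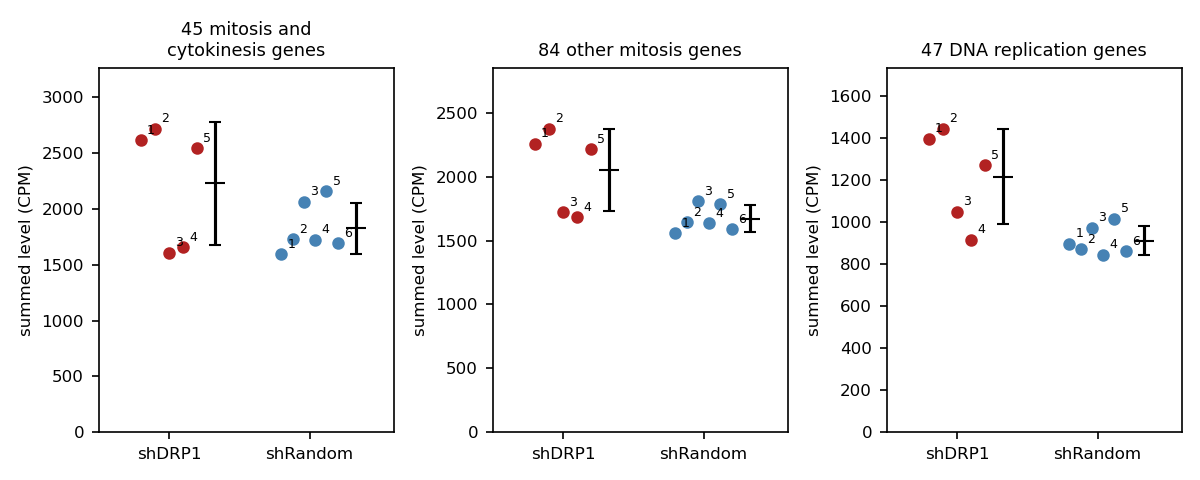
Summed level in CPM of the 45 genes, of 84 other mitosis genes and of 47 DNA replication genes; each point is a library marked with its replicate number, and bars are the mean ± SD of the group. In the first panel shDRP1 1, 2 and 5 lie at 2543 to 2714 CPM and shDRP1 3 and 4 at 1606 and 1654 CPM.

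A second pattern ran through both groups. Which genes were highest depended on the library. Of all 11, shDRP1 library 2 was the highest for 24 genes and shDRP1 library 5 for 13. The lowest was shRandom library 1 for 14 genes and shRandom library 4 for 12. Shares of all genes at these extremes are not given, so the counts are not shown to be particular to the 45. Cdk1 had a log2 ratio of 1.56 between shDRP1 libraries 2 and 5 and of 1.79 between shRandom libraries 1 and 4. Cenpa, the centromeric histone, had 1.18 and 1.25 in the same pairs. Mki67 went the other way, at -0.26 and -1.06, as did the checkpoint kinase gene Ttk, at -0.51 and -0.87. Across the 45 genes the ratios of these pairs had a Pearson r of 0.857 (Spearman's rho 0.883), and across all 13025 genes an r of 0.72. The pairs were chosen after the values were seen, and genes within a library share its depth and preparation, so r is given with no test. The share of counts on mitochondrial genes ran along with the pairs, at 3.40% in shDRP1 library 2 and 4.81% in shDRP1 library 5, and at 2.77% in shRandom library 1 and 4.04% in shRandom library 4. The share on rRNA-like genes was 2.73% and 5.56% in those shDRP1 libraries and 2.70% and 4.38% in those shRandom libraries. The 10 most abundant genes held 10.8% and 14.9% in the shDRP1 pair and 8.54% and 11.9% in the shRandom pair. The part of RNA quality in this pattern was not tested.

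**Figure D4:**
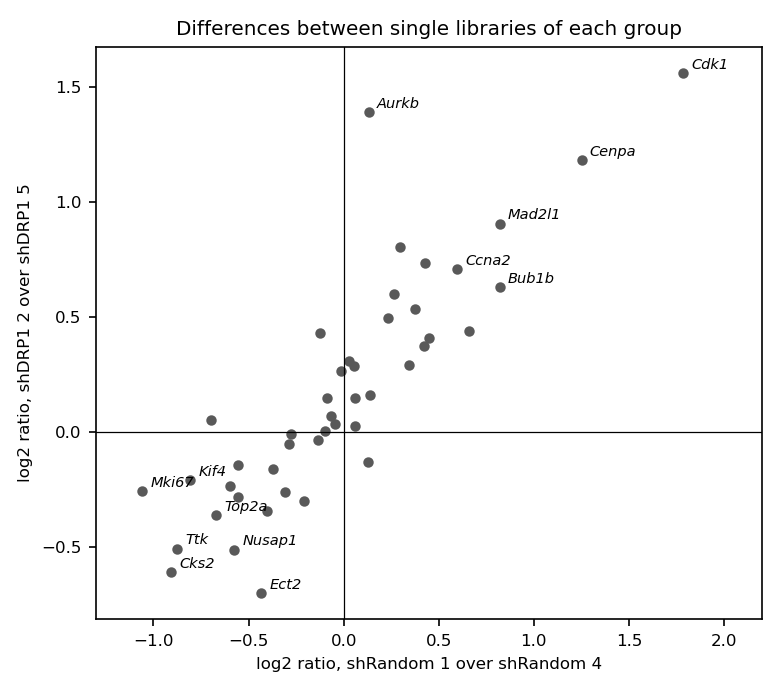
Each point is 1 of the 45 genes; the horizontal axis is the log2 ratio of shRandom library 1 over 4 and the vertical axis that of shDRP1 library 2 over 5, both of CPM + 0.5. Points run from Cks2 and Ttk at the lower left to Cenpa and Cdk1 at the upper right. Of the 45 genes, 37 have the same sign on both axes, beside 9851 of all 13025 genes tested.

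Among regulators of entry into mitosis, 3 of 10 rose (30%) and none fell, beside 33.9% higher and 33.3% lower of all genes. The median log2 fold change of these 10 was 0.43, and no role was tested against those shares. Aurka, the kinase that matures centrosomes, had 25.3, 28.4, 16.1, 14.6 and 25.4 CPM in shDRP1 libraries 1 to 5, against a lowest of 11.1, a median of 12.8 and a highest of 14.6 CPM in shRandom libraries. Library 3 was just above the shRandom range and library 4 at its upper end, and the group difference was 1.69-fold (log2 fold change 0.75, SE 0.16, adjusted p = 0.000912, edgeR). Foxm1, a transcription factor that activates mitotic genes together with MuvB, had 25.1, 28.9, 14.9, 15.0 and 23.6 CPM in shDRP1 libraries 1 to 5, against a lowest of 12.9, a median of 15.8 and a highest of 18.1 CPM in shRandom libraries. Libraries 1, 2 and 5 lay above the highest shRandom library and libraries 3 and 4 did not (log2 fold change 0.45, SE 0.17, adjusted p = 0.0303, edgeR). The call was lost without shDRP1 library 1, 2 or 5 and without shRandom library 1, 4 or 6 (adjusted p = 0.0506 to 0.0955), and the last 500 bases of Foxm1 also lie in Tex52 on the same strand. Ccnf, an F-box protein of G2, rose as well (log2 fold change 0.49, adjusted p = 0.0496, edgeR), a call lost without shDRP1 library 1, 2 or 5 and without shRandom library 1, 2, 4 or 6 (adjusted p = 0.0700 to 0.148).

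Cdk1, the kinase of mitosis itself, had 90.8, 141, 66.4, 42.6 and 47.5 CPM in shDRP1 libraries 1 to 5, against a lowest of 20.8, a median of 43.6 and a highest of 72.9 CPM in shRandom libraries. Its groups overlapped widely and it did not pass the test (log2 fold change 0.71, SE 0.36, adjusted p = 0.0989, edgeR). The B-type cyclin Ccnb1 (log2 fold change 0.42, adjusted p = 0.0553) and Ccna2 (log2 fold change 0.43, adjusted p = 0.114), both partners of CDK1, did not pass in edgeR either. Plk1, the polo kinase (log2 fold change 0.30, adjusted p = 0.129), and Pbk, a mitotic kinase (log2 fold change 0.43, adjusted p = 0.0583), did not pass in edgeR. Ccnb2 and Cks2, a small CDK-binding protein, had log2 fold changes of -0.13 and -0.14, neither past the test, and Cks2 had at most 2.84 CPM in any library.

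The spindle checkpoint and APC/C genes held 4 genes that rose of 6 (66.7%), and none fell, beside 33.9% and 33.3% of all genes. Bub1, a kinetochore kinase of the checkpoint, had 11.7, 17.2, 8.34, 8.76 and 11.7 CPM in shDRP1 libraries 1 to 5, against a lowest of 4.59, a median of 5.92 and a highest of 9.44 CPM in shRandom libraries. Only the highest shRandom library, library 3, reached shDRP1 libraries 3 and 4, and the difference was 1.76-fold (log2 fold change 0.81, SE 0.21, adjusted p = 0.00352, edgeR). Mad2l1, the MAD2 protein that holds back CDC20, had 16.8, 24.2, 12.1, 10.1 and 12.7 CPM in shDRP1 libraries 1 to 5, against a lowest of 5.91, a median of 8.97 and a highest of 13.1 CPM in shRandom libraries. Library 2 was well above the rest and libraries 3, 4 and 5 lay within the shRandom range (log2 fold change 0.68, SE 0.23, adjusted p = 0.0173, edgeR). Without shDRP1 library 2 the log2 fold change was 0.45.

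Cdc20, the activator of APC/C at anaphase, was higher, at 43.7 ± 10.1 CPM in shDRP1 and 32.7 ± 4.26 CPM in shRandom libraries (SD, n = 5 and 6; log2 fold change 0.42, adjusted p = 0.0178, edgeR), and was not called without shDRP1 library 2 (log2 fold change 0.32, adjusted p = 0.0540). Ube2c, its ubiquitin-conjugating enzyme, had 75.1, 89.8, 50.4, 42.2 and 67.6 CPM in shDRP1 libraries 1 to 5, against a lowest of 33.2, a median of 45.8 and a highest of 55.3 CPM in shRandom libraries. Libraries 1, 2 and 5 were above the shRandom range (log2 fold change 0.51, SE 0.18, adjusted p = 0.0205, edgeR), and the call was lost without shDRP1 library 1 or 2 (adjusted p = 0.0528 to 0.0658). The last 500 bases of Ube2c lie across Tnnc2, the fast troponin C gene on the opposite strand, which fell (log2 fold change -6.14, adjusted p = 9.86e-13, edgeR), and the strand setting of the counts was not given. Genes on the opposite strand also reach the last 500 bases of Ccna2, Cdc20, Kif20a, Ncapg and Prc1. Bub1b, the checkpoint protein BUBR1, had a log2 fold change of 0.54 (adjusted p = 0.0726, edgeR), and Ttk, the checkpoint kinase MPS1, one of 0.15.

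The chromosomal passenger complex, which corrects faulty attachments and later directs cytokinesis, held 1 gene that rose of 4 (25%), beside 33.9% of all genes. Aurkb, its kinase, had 4.12, 9.05, 3.24, 1.88 and 3.14 CPM in shDRP1 libraries 1 to 5, against a lowest of 1.85, a median of 2.12 and a highest of 2.90 CPM in shRandom libraries. Library 2 was far above the rest, and library 4 lay inside the shRandom range (log2 fold change 0.91, SE 0.32, adjusted p = 0.0234, edgeR). The call was lost without shDRP1 library 2 (log2 fold change 0.46, adjusted p = 0.0653). Birc5, the survivin subunit, had 152, 161, 87.0, 76.6 and 130.1 CPM in shDRP1 libraries 1 to 5, against a lowest of 90.0, a median of 92.7 and a highest of 117 CPM in shRandom libraries. Its high and low shDRP1 libraries fell on both sides of the shRandom range (log2 fold change 0.30, SE 0.18, adjusted p = 0.153, edgeR). Cdca8 (borealin) and Incenp, the scaffold, had log2 fold changes of 0.21 and 0.19, neither past the test.

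Of 6 centromere and kinetochore genes 1 rose (16.7%) and none fell, beside 33.9% and 33.3% of all genes. Spc25, a subunit of the NDC80 complex that binds microtubules, had 81.4, 72.8, 47.9, 59.1 and 88.7 CPM in shDRP1 libraries 1 to 5, against a lowest of 30.3, a median of 43.7 and a highest of 49.1 CPM in shRandom libraries. Only shDRP1 library 3 lay within the shRandom range, and the difference was 1.65-fold (log2 fold change 0.72, SE 0.16, adjusted p = 0.00109, edgeR). Nuf2, another subunit of the complex, had 14.7, 13.8, 8.96, 7.91 and 17.0 CPM in shDRP1 libraries 1 to 5, against a lowest of 8.40, a median of 9.38 and a highest of 11.7 CPM in shRandom libraries (log2 fold change 0.37, SE 0.18, adjusted p = 0.0864, edgeR). Ndc80 itself was 27.7 ± 6.46 CPM in shDRP1 and 28.6 ± 5.35 CPM in shRandom libraries (SD, n = 5 and 6), a log2 fold change of -0.050 that did not pass and was above 0 when libraries were scaled by their totals. Cenpe, a kinetochore motor, had 87.0, 82.7, 49.6, 59.5 and 91.5 CPM in shDRP1 libraries 1 to 5, against a lowest of 45.4, a median of 62.7 and a highest of 75.2 CPM in shRandom libraries. Those libraries lay both above and inside the shRandom range (log2 fold change 0.27, SE 0.16, adjusted p = 0.167, edgeR). Cenpa and Cenpf, a large kinetochore protein, had log2 fold changes of 0.41 and 0.18, neither past the test.

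Among spindle motors and assembly factors 2 of 6 rose (33.3%) and none fell, beside 33.9% and 33.3% of all genes. Kif2c, the depolymerase MCAK, had 11.02, 14.8, 7.06, 6.26 and 10.8 CPM in shDRP1 libraries 1 to 5, against a lowest of 5.98, a median of 6.53 and a highest of 8.64 CPM in shRandom libraries (log2 fold change 0.50, SE 0.20, adjusted p = 0.0360, edgeR). Kif4, a chromosome-bound kinesin, had 16.3, 15.2, 7.73, 9.98 and 17.7 CPM in shDRP1 libraries 1 to 5, against a lowest of 6.05, a median of 9.48 and a highest of 11.8 CPM in shRandom libraries (log2 fold change 0.52, SE 0.22, adjusted p = 0.0488, edgeR). In both genes libraries 1, 2 and 5 were above the shRandom range and libraries 3 and 4 inside it. The call of Kif2c was lost without shDRP1 library 1, 2 or 5 and without shRandom library 1, 2, 4 or 6 (adjusted p = 0.0584 to 0.119), and that of Kif4 without shDRP1 library 1, 2 or 5 and without shRandom library 1, 2, 5 or 6 (adjusted p = 0.0643 to 0.130). Tpx2, which activates Aurora A on the spindle, had 76.7, 69.4, 44.3, 44.4 and 77.5 CPM in shDRP1 libraries 1 to 5, against a lowest of 41.4, a median of 55.2 and a highest of 61.4 CPM in shRandom libraries. It did not pass the test (log2 fold change 0.19, SE 0.16, adjusted p = 0.306, edgeR), and neither did Kif11, Nusap1 and Hmmr, at log2 fold changes of 0.19, 0.13 and 0.050.

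The genes of the central spindle and cytokinesis stood lowest of the 7 roles, with a median log2 fold change of -0.11. Beside 33.9% higher and 33.3% lower of all genes, none of the 6 rose or fell in edgeR at an adjusted p of 0.05. At an unadjusted p under 0.05 1 was higher and none lower, and the same counts came from DESeq2 at an adjusted p of 0.05, while limma-voom gave 0 in both directions. Prc1, which bundles the microtubules of the central spindle, had 77.3, 85.1, 48.2, 50.2 and 83.6 CPM in shDRP1 libraries 1 to 5, against a lowest of 59.9, a median of 64.3 and a highest of 86.6 CPM in shRandom libraries. Libraries 3 and 4 were below every shRandom library and the other shDRP1 libraries within their range (log2 fold change -0.011, SE 0.16, adjusted p = 0.954, edgeR). Racgap1, a subunit of centralspindlin, had 63.5, 79.5, 45.6, 41.1 and 66.1 CPM in shDRP1 libraries 1 to 5, against a lowest of 63.1, a median of 64.4 and a highest of 74.3 CPM in shRandom libraries. Libraries 3 and 4 were below every shRandom library and library 2 was above them (log2 fold change -0.19, SE 0.14, adjusted p = 0.262, edgeR).

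Kif20a, a kinesin of the midzone, had 23.5, 29.0, 13.0, 15.0 and 21.2 CPM in shDRP1 libraries 1 to 5, against a lowest of 9.78, a median of 15.8 and a highest of 16.9 CPM in shRandom libraries, and was the 1 cytokinesis gene above 0 (log2 fold change 0.46, SE 0.20, adjusted p = 0.0555, edgeR). Anln, the ring protein anillin, was 18.7 ± 5.96 CPM in shDRP1 and 21.9 ± 3.60 CPM in shRandom libraries (SD, n = 5 and 6; log2 fold change -0.24, adjusted p = 0.293, edgeR). Kif23, the kinesin of centralspindlin, had a log2 fold change of -0.17 and Ect2, the exchange factor that activates RhoA, one of -0.043, neither past the test. With libraries scaled by their totals, Prc1 and Ect2 lay above 0.

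Condensin and chromosome structure held the genes with the largest log2 fold changes of the 45, Ncaph and Smc2. In this role 4 of 7 genes were higher (57.1%) and none lower, beside 33.9% and 33.3% of all genes. Its median log2 fold change of 0.40 was below that of the spindle checkpoint and APC/C genes, 0.53. Smc2, an ATPase arm of both condensins (ENSMUSG00000028312, chr4:52439243-52488260, plus strand of GRCm38), had 248, 229.5, 145, 166 and 238 CPM in shDRP1 libraries 1 to 5, against a lowest of 72.6, a median of 87.1 and a highest of 109 CPM in shRandom libraries. Every shDRP1 library was above every shRandom library, and the lowest of them, library 3, was still above the highest shRandom library. The difference was 2.31-fold (log2 fold change 1.21, SE 0.14, adjusted p = 4.88e-06, edgeR). Ncaph, the kleisin that closes the condensin I ring (ENSMUSG00000034906, chr2:127103809-127133954, minus strand of GRCm38), had 12.4, 17.0, 9.58, 7.53 and 9.54 CPM in shDRP1 libraries 1 to 5, against a lowest of 2.71, a median of 3.96 and a highest of 6.80 CPM in shRandom libraries. Again the groups did not overlap, at 2.52-fold (log2 fold change 1.33, SE 0.27, adjusted p = 0.000674, edgeR).

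Smc4, the arm that pairs with SMC2, had 392, 403, 283, 281 and 364 CPM in shDRP1 libraries 1 to 5, against a lowest of 314, a median of 339 and a highest of 404 CPM in shRandom libraries. Its groups overlapped and the difference was near 0 (log2 fold change -0.025, SE 0.11, adjusted p = 0.841, edgeR), and above 0 with libraries scaled by their totals. Ncapg (log2 fold change 0.51, adjusted p = 0.0189) and Ncapd2 (log2 fold change 0.29, adjusted p = 0.0380), the HEAT-repeat subunits of condensin I, rose in edgeR. Ncapg was not called without shDRP1 library 5 (log2 fold change 0.39, adjusted p = 0.0551), nor Ncapd2 without shDRP1 library 1, 2 or 5 and without shRandom library 1, 2, 4 or 6 (adjusted p = 0.0611 to 0.0996). Top2a, topoisomerase II alpha, was 226 ± 70.1 CPM in shDRP1 and 198 ± 37.1 CPM in shRandom libraries (SD, n = 5 and 6) and did not pass (log2 fold change 0.19, adjusted p = 0.416, edgeR). Mki67, the Ki-67 protein that coats mitotic chromosomes and is the usual marker of cycling cells (ENSMUSG00000031004, chr7:135689784-135716361, minus strand of GRCm38), had 62.6, 52.6, 27.7, 39.7 and 62.9 CPM in shDRP1 libraries 1 to 5, against a lowest of 25.2, a median of 35.3 and a highest of 53.1 CPM in shRandom libraries. Only shDRP1 libraries 1 and 5 were above the highest shRandom library, and the difference did not pass (log2 fold change 0.40, SE 0.23, adjusted p = 0.147, edgeR).

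**Figure D5:**
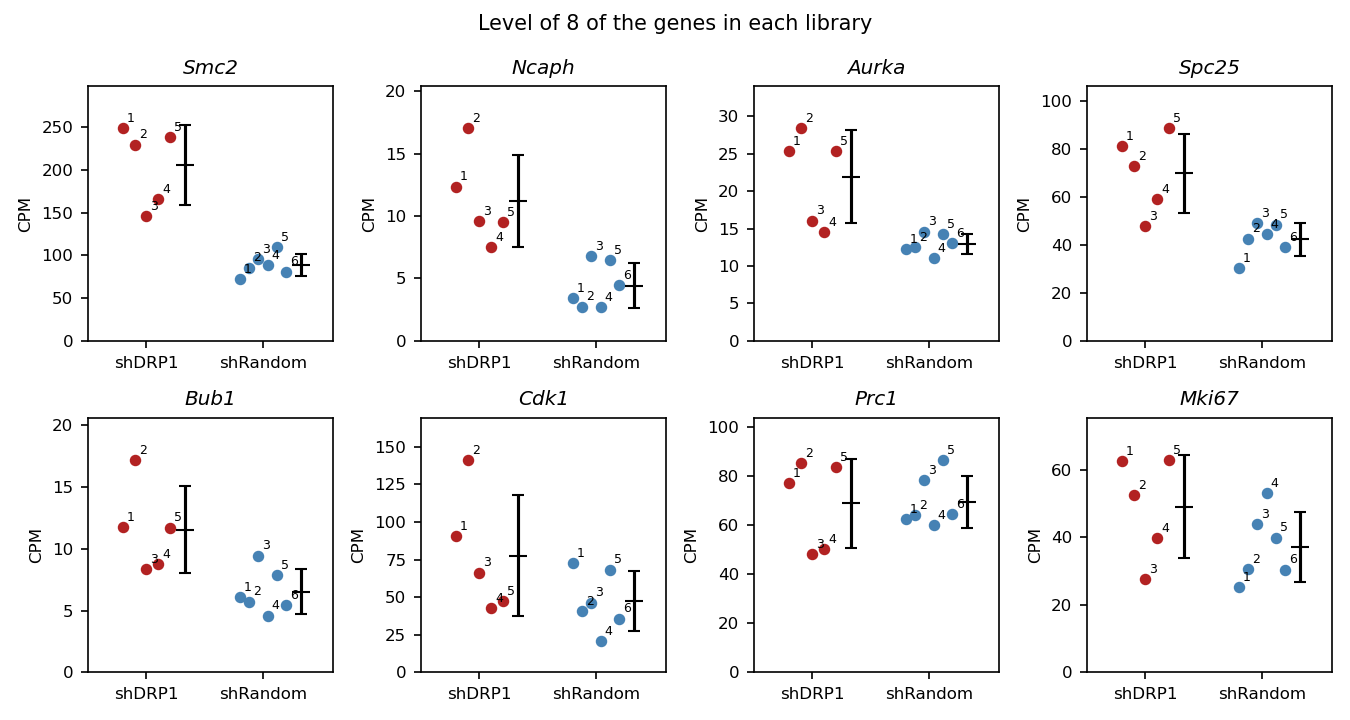
Level in CPM of 8 of the genes; each point is a library marked with its replicate number, and bars are the mean ± SD of the group. Smc2 and Ncaph show no overlap between groups, while in Prc1 the shDRP1 libraries lie at 48.2 to 85.1 CPM against a shRandom range of 59.9 to 86.6 CPM.

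The count of 15 rested on single libraries and settings. It was 9 without shDRP1 library 1, 7 without library 2, 23 without library 3, 23 without library 4 and 9 without library 5. Leaving out shRandom libraries in turn gave 10 to 16. In the same runs, each without 1 library, 4150 to 4427 of all genes were called higher. The count for the 45 genes was 9 with limma-voom. It was 6 without shRandom library 1 and shDRP1 library 2, the libraries on top of the ratios in the second pattern. Aurka, Bub1, Spc25, Smc2 and Ncaph kept their direction and call under every setting that tested them. Without shDRP1 library 2 Racgap1 was lower, the only gene of the 45 to be called lower in any setting.

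Of 84 other mitosis genes, 83 were tested, and 45 were higher (54.2%) and 6 lower (7.23%), beside 33.9% and 33.3% of all genes. The median log2 fold change was 0.47. Every shDRP1 library was above every shRandom library for 19 of the 83 and below for 4, beside 23.5% and 25.4% of all genes. Psrc1, a spindle protein, was 13.5 ± 1.68 CPM in shDRP1 and 2.29 ± 0.398 CPM in shRandom libraries (SD, n = 5 and 6; log2 fold change 2.56, adjusted p = 3.92e-10, edgeR). Cenpt, an inner kinetochore protein, was 20.6 ± 1.65 CPM in shDRP1 and 8.28 ± 0.957 CPM in shRandom libraries (SD, n = 5 and 6; log2 fold change 1.31, adjusted p = 1.37e-08, edgeR). Among those that fell, Cdc25b, a phosphatase that activates CDK1, was 36.4 ± 4.85 CPM in shDRP1 and 66.6 ± 3.68 CPM in shRandom libraries (SD, n = 5 and 6; log2 fold change -0.87, adjusted p = 3.93e-07, edgeR). Ncaph2, the kleisin of condensin II and counterpart of Ncaph, fell too, at 78.5 against 109.8 CPM in shDRP1 and shRandom libraries (log2 fold change -0.48, adjusted p = 2.83e-06, edgeR). Their summed level was 2257, 2374, 1719, 1685 and 2216 CPM in shDRP1 libraries 1 to 5, against a lowest of 1558, a median of 1639 and a highest of 1809.7 CPM in shRandom libraries, with libraries 3 and 4 again below the other 3.

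DNA replication genes, which act in the phase before, were called higher in 34 of 47 cases (72.3%) and lower in 3, beside 33.9% and 33.3% of all genes. Their median log2 fold change was 0.65, against 0.031 over all genes. Ccne1, the cyclin of S-phase entry, was 17.6 ± 3.99 CPM in shDRP1 and 5.96 ± 1.17 CPM in shRandom libraries (SD, n = 5 and 6; log2 fold change 1.56, adjusted p = 1.16e-06, edgeR). Orc6, a subunit of the origin recognition complex, was 22.7 ± 2.82 CPM in shDRP1 and 36.7 ± 4.05 CPM in shRandom libraries (SD, n = 5 and 6; log2 fold change -0.70, adjusted p = 2.18e-05, edgeR). Pold2, a subunit of polymerase delta, fell too, at 15.1 against 19.5 CPM in shDRP1 and shRandom libraries. Rrm2, the small subunit of ribonucleotide reductase, was the third that fell, at 21.4 against 45.3 CPM in shDRP1 and shRandom libraries. The summed level was 1397, 1445, 1049.7, 917 and 1272 CPM in shDRP1 libraries 1 to 5, against a lowest of 846, a median of 884 and a highest of 1017 CPM in shRandom libraries. Libraries 1, 2, 3 and 5 were above every shRandom library. The differences between these lists and the 45 genes were not tested.

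Of 10 measured cell cycle inhibitors and G1 cyclins with their kinases, 5 rose and 4 fell, while 67.1% of all genes were called in either direction. Those that rose were Ccnd1, Ccnd2, Cdk4, Cdk6 and Cdkn1b, and those that fell were Ccnd3, Cdkn1a, Cdkn1c and Cdkn2c. Ccnd1, a D-type cyclin, was 217 ± 19.1 CPM in shDRP1 and 99.6 ± 16.0 CPM in shRandom libraries (SD, n = 5 and 6; log2 fold change 1.12, adjusted p = 2.40e-07, edgeR), while Ccnd3, the D-type cyclin kept in myotubes, fell to 265 CPM in shDRP1 libraries, against 811 CPM in shRandom libraries. Cdkn1c, the inhibitor p57, fell to 0.0756 CPM, against 39.4 CPM in shRandom libraries. Cdkn1a, the inhibitor p21 that rises as myoblasts stop dividing, was 1100.1 ± 238 CPM in shDRP1 and 3974 ± 295 CPM in shRandom libraries (SD, n = 5 and 6; log2 fold change -1.85, adjusted p = 6.79e-09, edgeR). It was singled out after its values were seen. The groups of Cdkn1a did not overlap, unlike those of 43 of the 45 mitotic genes. Of all genes, 25.4% had every shDRP1 library below every shRandom library and 23.5% had every one above, so this does not set Cdkn1a apart.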

How the data were processed

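RNA from 11 C2C12 libraries was profiled with QuantSeq, which reads 1 tag near the 3′ end of a transcript, so counts carry no length bias. The read length is 50 bp in the sample protocols and 75 bp in the series text. Per the labels and the submitters' processing notes, alignment used BlueBee software with GRCm38/mm10; no aligner, counting tool or strand setting was given there. The deposited raw counts per gene were the input of every test. The authors' second deposited table holds a signal, the counts divided by 1 size factor per library (DESeq2 1.22.2 per the submitters' processing notes), and gave an alternative summed level only.

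Genes were filtered with filterByExpr, scaled by TMM and tested with edgeR 4.0.16 in R 4.3.3 (robust quasi-likelihood, group as the only term), with Benjamini-Hochberg adjustment over 13025 genes at 0.05. CPM use TMM-scaled totals, and the standard error is the log2 fold change over the square root of its F. DESeq2 1.42.0, limma 3.58.1 (voom), other scalings and filters, thinned counts, a replicate block and each library left out were alternatives. The edgeR steps alone were checked on simulated counts in which most genes were unchanged and genes were drawn independently. That setting differs from these data, where 67.1% of genes were called. Counts of every pair of replicates differed by more than sampling noise, so none is 1 library deposited again; this does not show separate cultures. Symbols were matched for 15080 of 15113 identifiers.

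The 45 genes, their 7 roles, the other lists and the tests were chosen with earlier results of these data known. All 45 genes are named. Values in every library are given for Mki67 and, in each role, for the 2 genes with the smallest adjusted p and the 1 with the highest mean CPM. Of the other cell cycle lists the 2 with the smallest adjusted p in each direction are named, and of the myotube genes the 2 with the highest mean CPM. A gene that this rule names is not reported here. Tnnc2, Cdkn1a, Rrm2, E2f8, Mybl2, Cd14, Csf1r, Pparg, Itgam, the other members of short lists and the library pairs were singled out after their values were seen. So were Rbl1, Lin37 and the other regulators named beyond this rule. Promoter windows are from RefSeq on GRCm38.p6 and were searched on both strands.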

Additional observations from a re-analysis of the deposited data

Results flagged for a closer look

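E2f8, an atypical E2F repressor of the cell cycle, had 7.45 CPM in shRandom replicate 1, while the nearest of the other shRandom libraries had 13.1 CPM and the farthest 15.7 CPM. The gap was 0.684 of the whole range of the group, above the value allowed for 6 samples. It was the only such library among 140 groups of values examined, and chance alone marks about 1 group in 20. E2f8 fell in shDRP1 libraries (mean 4.79 against 13.5 CPM in shRandom libraries, log2 fold change -1.50, adjusted p = 0.000146, edgeR).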

How the results depend on the processing

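The count of 15 mitotic genes called higher was 13 with median-ratio size factors, 20 with library totals or upper-quartile scaling, 14 with no low-count filter, 18 with DESeq2 and 17 with thinned counts. It was 9 with limma-voom, 5 at a threshold of 0.01 and 6 without shRandom library 1 and shDRP1 library 2 together. Leaving out 1 library at a time gave 7 to 23 higher and 0 to 1 lower. The 1 lower was Racgap1, without shDRP1 library 2 and again without that pair (1 lower). The median log2 fold change of the 45 genes was 0.22 to 0.47 and the ratio of summed levels 1.15 to 1.30 over the same runs. A mean of at least 10 CPM, which tests fewer genes, left 24 other mitosis genes higher, with all genes higher at 2900 and all genes lower at 2838. Library totals and the upper quartile moved the median of all genes to 0.13 and 0.12, and the 45 genes stayed 0.33 to 0.34 above it. They also moved the share of all genes called higher, from 33.9% to 40% and 39.2%, and median-ratio size factors gave 32.9%. For no low-count filter, DESeq2, limma-voom, thinned counts, the threshold of 0.01 and the pair left out, that share is not given.

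Genes near 0 changed sign. With library totals and with the upper quartile, Ndc80 was 0.048 and 0.034, Prc1 0.086 and 0.072, Ect2 0.053 and 0.042, and Smc4 0.074 and 0.059. Prc1 was 0.011 with at least 10 CPM and 0.038 with thinned counts, where Cks2 was 0.028. Hmmr was -0.12 without the pair. With 1 library left out, ranges were -0.12 to 0.042 for Ndc80, -0.11 to 0.095 for Prc1, -0.30 to 0.10 for Ect2, -0.096 to 0.042 for Smc4, -0.32 to 0.038 for Cks2, -0.065 to 0.17 for Hmmr, -0.017 to 0.31 for Ttk and -0.0090 to 0.25 for Nusap1. The cause was not tested. Of the 45 genes, 37 never changed sign.

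With the replicate number as a block, 9 of the 45 genes were higher. Same-numbered libraries correlated at -0.176 to 0.357, and 1 of 5 shDRP1 libraries correlated best with its own number, so the numbers were not taken to pair the libraries. With counts thinned to the smallest library, Ncapd2 was the 1 call lost among the 15.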

Other observations

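Of 23 regulators of the cell cycle programme, 8 rose and 8 fell in edgeR at an adjusted p of 0.05 (34.8% each), shares near those of all genes (33.9% higher and 33.3% lower). E2f2, an activating E2F, was 7.45 ± 1.57 CPM in shDRP1 and 433.7 ± 49.3 CPM in shRandom libraries (SD, n = 5 and 6; log2 fold change -5.87, adjusted p = 1.21e-13, edgeR). Rbl2, the p130 pocket protein of the DREAM complex in cells that have left the cycle, fell too (log2 fold change -1.02, adjusted p = 9.05e-09, edgeR). Its relative Rbl1, the p107 protein, rose (log2 fold change 0.69, adjusted p = 0.00177, edgeR).

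E2f1, another activating E2F, was 38.6 ± 1.89 CPM in shDRP1 and 21.2 ± 1.18 CPM in shRandom libraries (SD, n = 5 and 6; log2 fold change 0.86, adjusted p = 2.29e-08, edgeR). Mybl1 and Mybl2, MYB factors of which the second joins MuvB to activate mitotic genes, rose by log2 fold changes of 1.04 and 1.25, and for both every shDRP1 library was above every shRandom library. This held for 4 of the 23 regulators and the reverse for 6, beside 23.5% and 25.4% of all genes. Mybl2 was low, at 2.70 against 1.12 CPM in shDRP1 and shRandom libraries. The core MuvB gene Lin37 fell (log2 fold change -0.64, adjusted p = 0.000229, edgeR), while Lin9, Lin52, Lin54 and Rbbp4 did not pass. Also called lower were Rb1, Tfdp1, Tfdp2, E2f8 and the NF-Y gene Nfyb. Also called higher were E2f5, E2f7 and the NF-Y genes Nfya and Nfyc.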
